A study of Mus musculus with 8 samples.

Results

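Calcium stores, pumps and entry channels are represented here by 41 genes, all of them among the 23993 gene symbols of the deposited table. They were chosen by name, with earlier results of these data known. They are genes of the sarcoplasmic reticulum, of the voltage-gated, store-operated and TRP channels, and of the pumps, exchanger and kinase that act beside them. Expression was measured by bulk RNA sequencing in thoracic aortas of male C57BL/6 mice aged 24 weeks, with 4 Tsc1 knockout and 4 control libraries. In the Tsc1 knockout mice (Tsc1fl/fl.Myh11-CreERT2.mT/mG) both floxed Tsc1 alleles are removed by a Cre made under the smooth muscle Myh11 promoter, and the control mice (Myh11-CreERT2.mT/mG) carry the same Cre and the same mT/mG fluorescent reporter with wild-type Tsc1. Tamoxifen, which activates the Cre, was given to all mice at 1.5 weeks. Tsc1 encodes hamartin, a brake on the growth kinase mTORC1. The labels call the samples smooth muscle cells, yet the protocol describes whole frozen and crushed vessels with no sorting, so cells without Cre also gave RNA.

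Smooth muscle contracts when cytosolic calcium rises and calmodulin activates myosin light chain kinase. Calcium enters through voltage-gated, store-operated and TRP channels and is released from the sarcoplasmic reticulum through IP3 and ryanodine receptors. SERCA pumps return it to the reticulum, where calsequestrin and other proteins hold it, and plasma membrane pumps and the sodium-calcium exchanger extrude it. In arterial smooth muscle the L-type channel Cav1.2, the IP3 receptor Itpr1 and the pump SERCA2 are the well-known main forms.

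Levels are in FPKM, fragment counts scaled by transcript length and by sequencing depth, so that different genes can be compared. Differences (Tsc1 knockout minus control) are on the log2(FPKM + 1) scale, each with its standard error (SE) from limma's moderated fit. That scale understates the change of low genes. A gene was called when its Benjamini-Hochberg adjusted p in limma, over the 12107 genes averaging 1 FPKM or more, was under 0.05. Means are given with SD, n = 4 per group. Nothing in the labels says how many mice gave each library. If replicates of a group are not separate animals, the p-values reflect no more than library-to-library spread.

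Tsc1 itself, which checks the labels, had 2.99, 3.58, 3.37 and 3.71 FPKM in knockouts 1 to 4, against 4.03, 4.82, 4.95 and 6.32 FPKM in controls 1 to 4 (log2 difference -0.44, SE 0.12, limma adjusted p = 0.019). The Tsc1 call was lost in 5 of 23 alternative fits, always with the sign kept (-0.53 to -0.30). Those 5 included the odd-numbered and the even-numbered libraries alone. Relative depth, read from the steps of low values, lay between 0.753 and 1.33 times that of control 1 in knockouts and reached 2.48 times in control 3; absolute depth is unknown. The 15 smooth muscle identity markers (Acta2, Myh11, Cnn1 and others) were all present, and their summed level was 15508 to 20837 FPKM in knockouts and 23754 to 24326 FPKM in controls. Of these 15 markers 9 were called lower and 0 higher, where 15% of all tested genes were called lower and 17.1% higher. Of the 11 endothelial markers 8 were lower, with sums of 149.8 to 219.7 FPKM in knockouts and 264 to 347 FPKM in controls. Of the 11 adventitial fibroblast markers 7 were lower (636 to 852 FPKM in knockouts, 1032 to 1382 FPKM in controls). Macrophage markers had 0 of 11 called, 4 of 5 tested Schwann cell and neuron markers were lower, and fat cell markers had 1 higher and 1 lower of 11 tested. In whole tissue, fewer cells of a type and less RNA per cell cannot be told apart. Scores of smooth muscle, skeletal muscle and fat cell markers were entered as covariates in alternative fits. The part of the other marker shifts in the results on calcium genes was not tested.

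Libraries of both genotypes also held transcripts of striated muscle, which uses many of the same calcium genes. Several cardiac muscle markers were high in knockouts 1 and 4. Nppa (atrial natriuretic peptide) had 150.3, 0.203, 0.208 and 187 FPKM in knockouts 1 to 4, against 0.353, 0.168, 0.252 and 0.222 FPKM in controls 1 to 4. The summed level of the 9 cardiac markers was 417, 121, 79.7 and 419 FPKM in the knockouts and 66.2 to 89.8 FPKM in controls. Of the 7 tested 2 (Tnnt2 and Myl4) were called higher, and both were above all controls in every knockout. Tnnt2 had 86.1, 84.1, 45.6 and 94.9 FPKM in knockouts 1 to 4, against 31.1 to 39.1 FPKM in controls. Myoz2 was at 17.5 ± 4.95 FPKM in knockouts and 28.6 ± 7.32 FPKM in controls and did not pass. As a sum, skeletal muscle markers were high in control 4 alone. Their summed level over 17 genes was 12.4 to 22.3 FPKM in knockouts, 26.5 to 27.2 FPKM in controls 1 to 3 and 298 FPKM in control 4, where Acta1 (skeletal alpha-actin) had 65.0 FPKM against 0.0731 to 0.722 FPKM in the other 7 libraries. Of the 10 tested skeletal markers 3 were lower (Ckm, Mybpc2 and Eno3) and 0 higher. Mybpc2 was highest in control 3, with 2.06, 0.927, 3.04 and 2.36 FPKM in controls 1 to 4 and 0.457 to 0.714 FPKM in knockouts. It passed the filter of 1 FPKM only through the controls. Myh1, a myosin of fast skeletal muscle, was listed at 0 in all 4 knockouts.

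Of the 41 calcium genes 34 averaged 1 FPKM or more and were tested. In the knockout aortas 6 rose and 10 fell, and 18 did not pass. Over all tested genes 32.2% were called, 17.1% as higher and 15% as lower, against 47.1%, 17.6% and 29.4% of the tested calcium genes. Because the list was chosen with earlier results of these data known, the 2 sets of shares are a description and not a test. The median log2 difference of the tested calcium genes was -0.07, beside 0.01 over all tested genes. The groups did not overlap for 14 of the 34, with all knockouts above all controls for 5 and below them for 9, while 33.9% of all tested genes had no overlap. Casq1, a store protein, had the largest difference of the 34, and 8 of the called genes had a log2 difference of at least 0.5 in size, which 13.2% of all tested genes reached with a call. The number of genes that fell was 6 without control 2 and 6 without control 4. It was also 6 without both knockouts 1 and 4, a selection made after the data were seen, and the number that rose was then 4. Fewer were called over all tested genes as well in that alternative. For the fits without control 2 or control 4 the counts over all tested genes are not given here. The lower calcium counts are therefore not read as particular to these genes.

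**Figure D1:**
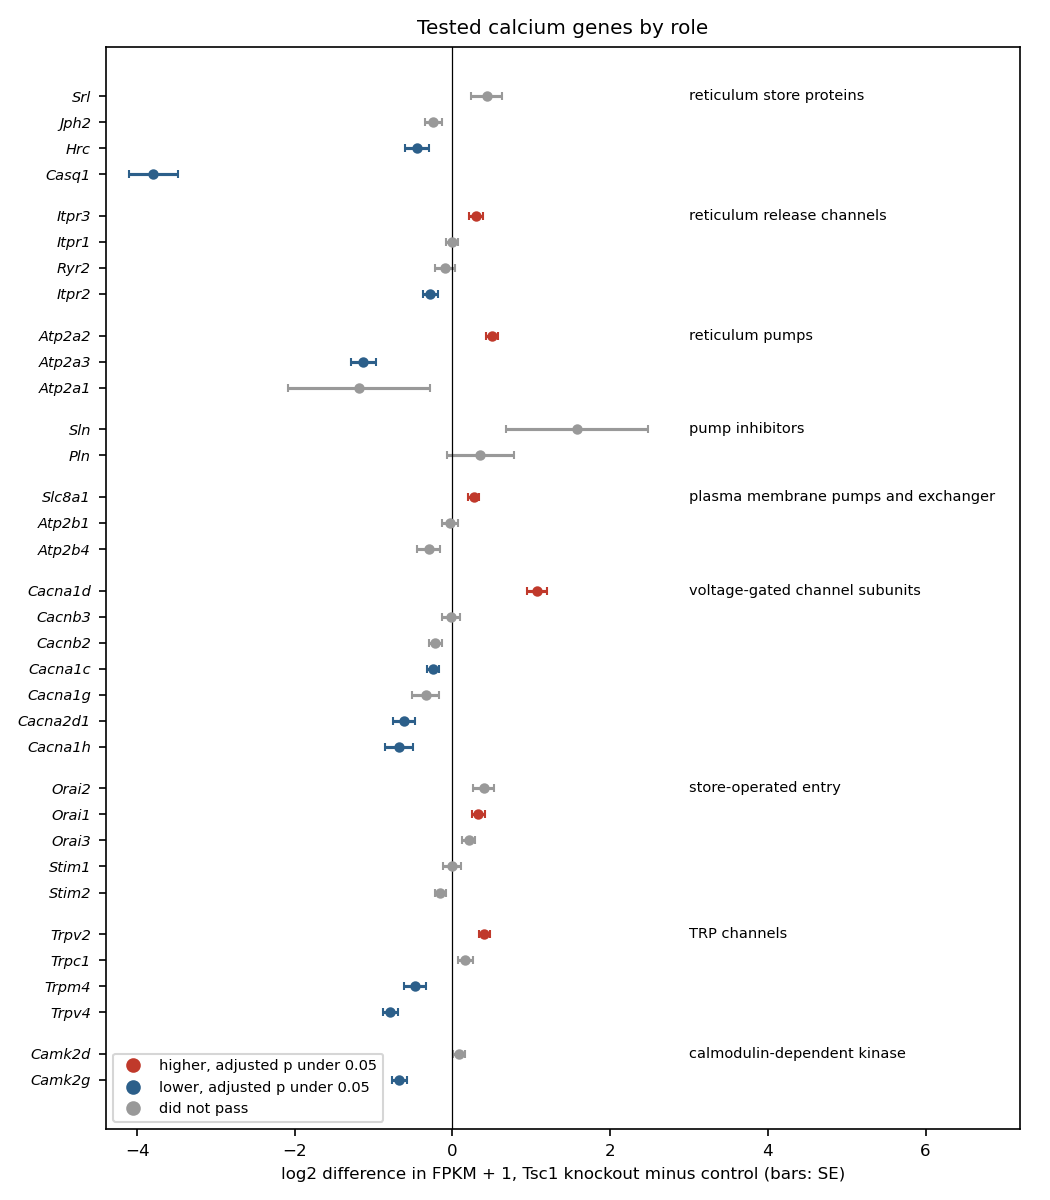
Log2 difference in FPKM + 1 (x axis, Tsc1 knockout minus control) of the 34 tested calcium genes (y axis), grouped by role, with bars for the SE and colour for the call. Casq1 stands at -3.79, and the 16 called genes lie on both sides of 0.

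The sequences upstream of 3 of these genes are shown because they are the largest fall (Casq1), the called fall with the next largest size (Atp2a3) and the largest called rise (Cacna1d). Each is the 250 bases before an annotated start in RefSeq for GRCm38.p6, the same assembly as mm10, printed 5′ to 3′ on the gene's strand. Capitals mark matches on either strand to GGGCGG, the GC box letters, or to TATAAA, the TATA box letters. Cacna1d has 2 annotated starts, and which of them is used in these aortas was not analysed here.
Casq1, chr1:172219896-172220145, minus strand: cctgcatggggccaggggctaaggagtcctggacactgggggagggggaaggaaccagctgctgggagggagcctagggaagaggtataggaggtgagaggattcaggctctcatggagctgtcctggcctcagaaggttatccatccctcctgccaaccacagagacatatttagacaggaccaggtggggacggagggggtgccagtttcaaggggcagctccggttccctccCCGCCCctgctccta
Atp2a3, chr11:72960919-72961168, plus strand: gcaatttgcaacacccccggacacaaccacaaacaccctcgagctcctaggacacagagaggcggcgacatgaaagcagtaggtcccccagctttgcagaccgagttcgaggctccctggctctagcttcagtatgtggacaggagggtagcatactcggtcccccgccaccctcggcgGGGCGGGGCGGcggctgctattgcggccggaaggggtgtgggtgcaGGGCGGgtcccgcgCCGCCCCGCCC
Cacna1d, first start, chr14:30491157-30491406, minus strand: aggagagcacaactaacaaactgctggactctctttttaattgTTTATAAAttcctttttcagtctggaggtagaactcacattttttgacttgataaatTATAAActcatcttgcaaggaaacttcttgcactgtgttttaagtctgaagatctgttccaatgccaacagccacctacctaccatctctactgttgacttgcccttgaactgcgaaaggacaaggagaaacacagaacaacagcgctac
Cacna1d, second start, chr14:30353487-30353736, minus strand: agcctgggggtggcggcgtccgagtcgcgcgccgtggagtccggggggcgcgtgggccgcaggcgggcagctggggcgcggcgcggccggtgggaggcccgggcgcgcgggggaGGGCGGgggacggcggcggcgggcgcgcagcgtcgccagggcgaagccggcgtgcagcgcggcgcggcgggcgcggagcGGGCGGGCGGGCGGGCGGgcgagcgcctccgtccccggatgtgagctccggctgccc
The Casq1 window was 61.6% G or C, that of Atp2a3 66.8%, and those of Cacna1d 39.6% at the first start and 86.4% at the second. Windows were found for 32 of the 41 genes. GGGCGG, whose copies may overlap one another, was present for 24 of the 32 (75%), against 65.0% of the 9096 tested genes and 35.4% of all 27025 genes with a window. TATAAA was present for 3 (9.38%, against 7.79% of the tested and 14.3% of all genes). CACGTG, the E-box core bound by MiT/TFE factors, was present for 2, Itpr3 and Orai2 (6.25%, against 10.03% of the tested and 6.86% of all genes). CArG boxes, the sites of serum response factor, and MEF2 boxes, both searched by name with A or T allowed in the centre, matched in 1 gene each. These were Trpc6 and Casq2, each 3.13% of the 32. Both genes were under the level for testing. Over all genes with a window the shares were 1.62% and 1.99%, and over the tested genes 1.47% and 1.43%. A match describes letters only and names no factor at work in these aortas.

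Among the store proteins, Casq1 fell most. Calsequestrin 1 is the high-capacity calcium-binding protein of the reticulum lumen, best known from fast skeletal muscle (chromosome 1, 172209894 to 172219868, minus strand, in GENCODE release M21 on mm10). Casq1 had 1.64, 6.35, 2.92 and 5.94 FPKM in knockouts 1 to 4, against 68.1, 55.7, 79.3 and 61.2 FPKM in controls 1 to 4. The groups were far apart, and the highest knockout was below the lowest control. Its mean was 4.21 ± 2.29 FPKM in knockouts and 66.0 ± 10.2 FPKM in controls, 0.0638 times the control level (log2 difference -3.79, SE 0.31, limma adjusted p = 7.95e-05). The summed skeletal muscle markers were also lower in every knockout (12.4 to 22.3 FPKM) than in every control. Controls 1 to 3 had 26.5 to 27.2 FPKM and control 4 had 298 FPKM. A score of these markers was among the covariates tried. Casq1 kept its call in all 23 alternatives, that fit included (-4.53 to -2.58, highest limma adjusted p = 0.00165). Beyond that fit, the part of these markers in the Casq1 difference was not tested. The log2 difference was -3.83 without control 4 (limma adjusted p = 0.000518). Gm17224, an annotated gene on the opposite strand, overlaps 156 of 1951 exon bases of Casq1.

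Casq2, the calsequestrin of the heart, stood at a mean under 1 FPKM and was not tested. It had 1.77, 0.0922, 0.248 and 2.07 FPKM in knockouts 1 to 4 and 0.761, 0.534, 0.836 and 0.930 FPKM in controls. The 2 knockouts above all controls, numbers 1 and 4, are those with the highest summed cardiac markers, and the other 2 lay below all controls. The 2 calsequestrins together came to 3.17 to 8.01 FPKM in knockouts and 56.2 to 80.1 FPKM in controls. Casq1 made up 48.1% to 98.6% of that sum in knockouts and 98.5% to 99.1% in controls.

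Jph2 (junctophilin 2, which ties the reticulum to the plasma membrane) was the most abundant store protein gene and did not pass. It had 157, 206, 160.4 and 186 FPKM in knockouts 1 to 4, against 179, 225, 211 and 226 FPKM in controls (log2 difference -0.25, SE 0.11, limma adjusted p = 0.115), with overlap between the groups. It was called as lower without control 1 (-0.32, limma adjusted p = 0.0483). Hrc, a histidine-rich calcium-binding protein of the reticulum, had 4.74, 5.82, 4.39 and 7.88 FPKM in knockouts and 7.41, 7.605, 7.81 and 9.33 FPKM in controls (-0.45, SE 0.15, limma adjusted p = 0.0486). Its groups overlapped through knockout 4. The Hrc call held without knockout 4 and was lost without any 1 of the other 7 libraries (-0.49 to -0.36). Srl (sarcalumenin, a luminal calcium-binding glycoprotein) had 6.86, 5.72, 5.36 and 8.56 FPKM in knockouts and 3.56, 4.23, 4.05 and 7.05 FPKM in controls (0.43, SE 0.19, limma adjusted p = 0.118). Only control 4, the library with the highest summed skeletal muscle markers, reached into the knockout range, and without it Srl was called as higher (0.61, limma adjusted p = 0.0176). Among the knockouts Srl was highest in 1 and 4, the libraries with the highest summed cardiac markers. Without both, a selection made after the data were seen, Srl stood at 0.23 and did not pass.

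The main release channels of the reticulum kept similar levels. Itpr1, the most abundant of them, had 38.3, 46.8, 40.7 and 47.3 FPKM in knockouts 1 to 4 and 43.7, 42.0, 44.6 and 43.6 FPKM in controls 1 to 4 (-0.01, SE 0.08, limma adjusted p = 0.927). The knockouts lay on both sides of the controls. Itpr1 made up 86.5% to 89.3% of IP3 receptor FPKM in knockouts and 87.0% to 89.4% in controls. The minor IP3 receptors moved apart. Itpr2 fell to 2.40 ± 0.306 FPKM in knockouts, against 3.12 ± 0.30 FPKM in controls (-0.28, SE 0.09, limma adjusted p = 0.0474). Itpr3 rose to 3.64 ± 0.302 FPKM in knockouts, against 2.78 ± 0.380 FPKM in controls (0.30, SE 0.09, limma adjusted p = 0.0353). Both calls were near the threshold: the Itpr2 call was lost without knockout 1, 3 or 4 or control 1, 2 or 4 (-0.30 to -0.22), and the Itpr3 call without knockout 1, 2 or 3 or control 1, 3 or 4 (0.26 to 0.32). An antisense transcript, Itpr3os, overlaps 233 of 9019 exon bases of Itpr3.

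Ryr2, the ryanodine receptor best known from heart, was at 6.85 ± 0.689 FPKM in knockouts and 7.48 ± 1.53 FPKM in controls and did not pass (-0.10, SE 0.13, limma adjusted p = 0.605). Ryr3 stayed at 0.00292 to 0.0650 FPKM in knockouts and 0.0369 to 0.0820 FPKM in controls. Ryr1, the skeletal muscle form, was at 0 to 0.00985 FPKM in knockouts and 0 to 0.0264 FPKM in controls 1 to 3, and at 1.16 FPKM in control 4. Neither Ryr1 nor Ryr3 reached the level for testing, and Ryr2 made up 99.1% to 99.9% of ryanodine receptor FPKM in knockouts and 88.2% to 99.3% in controls.

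Among the SERCA pump transcripts Atp2a2 rose and Atp2a3 fell. Atp2a2 encodes SERCA2, the main calcium pump of the smooth and cardiac muscle reticulum (chromosome 5, 122453513 to 122502225, minus strand). It had 332, 346, 314 and 375 FPKM in knockouts 1 to 4, against 218, 261, 235 and 248 FPKM in controls 1 to 4. Every knockout was above every control (342 ± 25.7 FPKM in knockouts and 241 ± 18.4 FPKM in controls; log2 difference 0.50, SE 0.08, limma adjusted p = 0.00141). Atp2a2 was the most abundant of the 41 genes in both groups, with a mean level above that of 97.9% of tested genes. Without both knockouts 1 and 4, the libraries with the highest summed cardiac markers, its log2 difference was 0.46 (limma adjusted p = 0.0204).

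Atp2a3 encodes SERCA3, a lower-affinity pump also known from endothelium and blood cells (chromosome 11, 72961169 to 72993044, plus strand). It fell to 13.6, 20.4, 16.8 and 20.7 FPKM in knockouts 1 to 4, against 32.5, 46.6, 35.9 and 46.1 FPKM in controls 1 to 4. The groups did not overlap (17.9 ± 3.39 FPKM in knockouts and 40.3 ± 7.15 FPKM in controls; -1.13, SE 0.16, limma adjusted p = 0.00103). Within both groups replicates 2 and 4 had the higher values. Endothelial markers fell in the same libraries (8 of 11 called lower), and their part in the Atp2a3 difference was not tested. As a share of SERCA FPKM, Atp2a3 made up 3.93% to 5.58% in knockouts and 13.0% to 15.1% in controls, and Atp2a2 94.4% to 96.1% in knockouts and 78.6% to 87.0% in controls. The summed level of the family was 331 to 396 FPKM in knockouts and 251 to 316 FPKM in controls.

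Atp2a1, the SERCA1 pump of fast skeletal muscle, passed the filter through a single library. It was at 0.0145 to 0.0690 FPKM in knockouts, 0.0498 to 0.176 FPKM in controls 1 to 3 and 21.5 FPKM in control 4 (-1.19, SE 0.90, limma adjusted p = 0.344). Without control 4 its log2 difference was -0.11, and the mean was 0.0476 FPKM in knockouts and 0.128 FPKM in the other 3 controls.

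The small membrane peptides that inhibit SERCA differed between libraries more than between genotypes. Sln (sarcolipin, abundant in atrial muscle) had 16.6, 0, 0.937 and 14.7 FPKM in knockouts 1 to 4, against 0.168, 0.643, 0.273 and 1.74 FPKM in controls 1 to 4 (1.58, SE 0.90, limma adjusted p = 0.211). Knockouts 1 and 4, the libraries with Nppa, Myh6 and Myl7, carried the high values, and the other 2 knockouts fell within or below the control range. Leaving out both, chosen after the data were seen, put the log2 difference at -0.21. Pln (phospholamban) had 7.47, 5.05, 1.05 and 7.88 FPKM in knockouts and 4.56, 3.19, 2.67 and 3.11 FPKM in controls (0.35, SE 0.42, limma adjusted p = 0.558). Gm47644, annotated on the opposite strand, shares 1644 of the 2759 exon bases of Pln and Cep85l shares 141, and with the strand setting unknown reads of these bases cannot be assigned. Pln was called as higher without knockout 3, the lowest library (0.83, limma adjusted p = 0.0128), and had the opposite sign without both knockouts 1 and 4 (-0.30). As a ratio to Atp2a2 in FPKM, Pln stood at 0.00333 to 0.0225 in knockouts and 0.0114 to 0.0209 in controls.

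**Figure D2:**
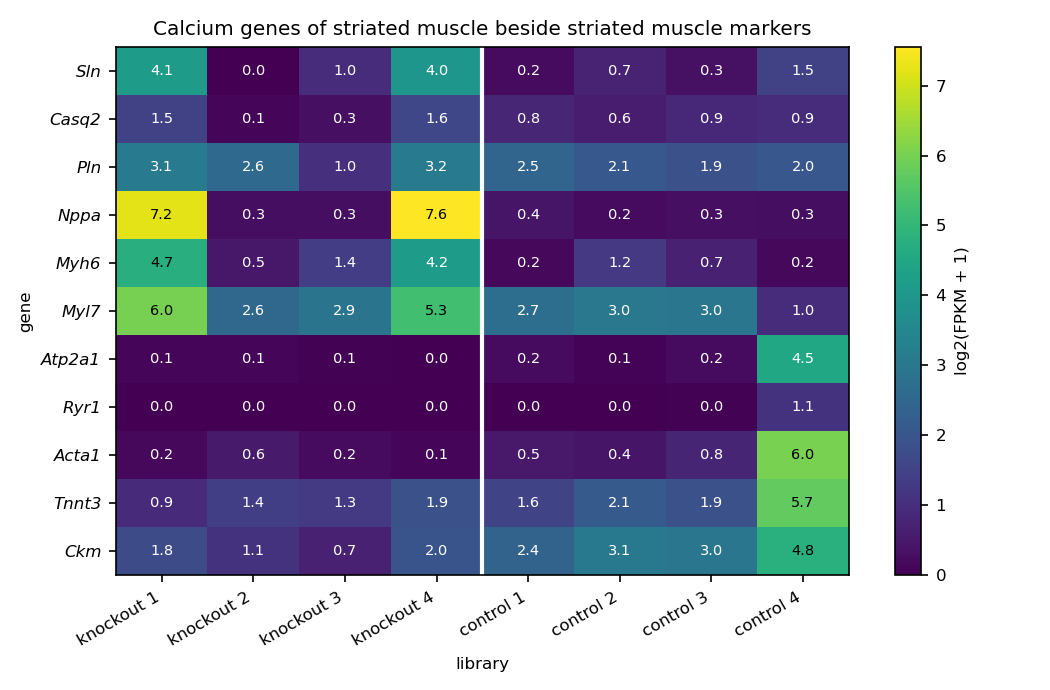
Level of 5 calcium genes of striated muscle and 6 striated muscle markers (rows) in each library (columns, knockouts left of controls), as log2(FPKM + 1) in numbers and colour. Sln is highest in knockouts 1 and 4, where Nppa, Myh6 and Myl7 are also highest, and Atp2a1 and Ryr1 are highest in control 4, where Acta1, Tnnt3 and Ckm are also highest.

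Of the genes that extrude calcium across the plasma membrane, 1 was called. Slc8a1 (the sodium-calcium exchanger NCX1) rose to 7.84, 8.76, 8.45 and 9.40 FPKM in knockouts 1 to 4, against 7.30, 7.27, 6.57 and 6.79 FPKM in controls 1 to 4, without overlap (0.27, SE 0.07, limma adjusted p = 0.0166). Its call was lost without both knockouts 1 and 4, the libraries with the highest summed cardiac markers. The plasma membrane pump Atp2b4 was the most abundant of this role, with 40.8, 63.2, 47.3 and 62.7 FPKM in knockouts and 61.1, 71.6, 59.1 and 69.2 FPKM in controls. It overlapped between groups and did not pass (-0.30, SE 0.14, limma adjusted p = 0.142). Atp2b1 was at 13.4 ± 0.898 FPKM in knockouts and 13.8 ± 2.07 FPKM in controls (-0.03, limma adjusted p = 0.823). Atp2b2, best known from neurons and hair cells, was under 1 FPKM in every library (0.392 ± 0.176 FPKM in knockouts, 0.651 ± 0.131 FPKM in controls).

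Among the voltage-gated subunits the pore-forming genes moved in opposite directions. Cacna1c, the Cav1.2 pore, fell slightly, with 7.83, 9.72, 9.40 and 9.11 FPKM in knockouts 1 to 4 and 10.5, 10.97, 10.7 and 11.4 FPKM in controls 1 to 4 (-0.25, SE 0.07, limma adjusted p = 0.0276). The groups did not overlap, but the call was lost without knockout 4 or without control 2, 3 or 4 (-0.26 to -0.23). Cacna1d, the Cav1.3 pore, an L-type channel that opens at more negative voltages (chromosome 14, 30039939 to 30491455, minus strand), had 11.1, 8.81, 12.7 and 8.07 FPKM in knockouts 1 to 4, against 4.55, 4.54, 3.71 and 4.26 FPKM in controls 1 to 4. Every knockout was above every control, and knockouts 1 and 3 were the highest (10.2 ± 2.14 FPKM in knockouts and 4.26 ± 0.395 FPKM in controls; 1.07, SE 0.13, limma adjusted p = 5.25e-04). The ratio of Cacna1d to Cacna1c was 0.886 to 1.42 in knockouts and 0.348 to 0.435 in controls, so that the 2 L-type pores stood at similar levels in knockouts.

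Chdh, choline dehydrogenase, lies on the opposite strand of Cacna1d and shares 589 of its 12621 exon bases. Chdh was looked at for this overlap after the calls were known. It had 11.7, 8.20, 10.9 and 7.00 FPKM in knockouts 1 to 4, against 1.18, 0.544, 0.456 and 0.704 FPKM in controls 1 to 4 (2.59, SE 0.18, limma adjusted p = 3.45e-05). Its control mean was under 1 FPKM, so Chdh passed the filter only through the knockouts. The strand setting of the counting is not given in the sources used here, so reads of the shared bases cannot be assigned to either gene, and the part of Chdh in the Cacna1d difference was not tested.

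The T-type pores were low. Cacna1h (Cav3.2) fell to 0.912, 1.04, 1.13 and 1.22 FPKM in knockouts 1 to 4, against 1.51, 2.44, 2.01 and 3.65 FPKM in controls 1 to 4 (-0.68, SE 0.17, limma adjusted p = 0.0178), without overlap. With the smaller pseudocount of 0.1 its log2 difference was -1.03. Cacna1g (Cav3.1) was at 0.914 ± 0.226 FPKM in knockouts and 1.45 ± 0.554 FPKM in controls and did not pass (-0.34, SE 0.17, limma adjusted p = 0.158). Of the 4 pores together, Cacna1d made up 42.3% to 52.9% of FPKM in knockouts and 19.99% to 25.1% in controls.

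Of the auxiliary subunits, Cacna2d1, the extracellular alpha2-delta subunit that brings pores to the membrane (chromosome 5, 15934691 to 16374511, plus strand), fell to 14.8, 21.7, 15.6 and 22.4 FPKM in knockouts 1 to 4, against 29.9, 27.4, 25.6 and 31.6 FPKM in controls 1 to 4. The groups did not overlap (18.6 ± 3.9995 FPKM in knockouts and 28.6 ± 2.67 FPKM in controls; -0.61, SE 0.14, limma adjusted p = 0.0109). Knockouts 1 and 3 were the lowest, and within the even-numbered libraries alone the log2 difference was -0.40. Cacnb3, the most abundant cytosolic beta subunit, had 29.7, 26.1, 31.5 and 22.9 FPKM in knockouts and 23.3, 30.7, 27.6 and 30.01 FPKM in controls (-0.02, limma adjusted p = 0.916). Cacnb2 was at 7.94 ± 0.753 FPKM in knockouts and 9.39 ± 0.753 FPKM in controls (-0.22, limma adjusted p = 0.0717), and was called as lower without control 3 (-0.27, limma adjusted p = 0.0471). Cacna2d2 stayed at 0.253 to 0.372 FPKM in knockouts and 0.132 to 0.247 FPKM in controls and was not tested.

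**Figure D3:**
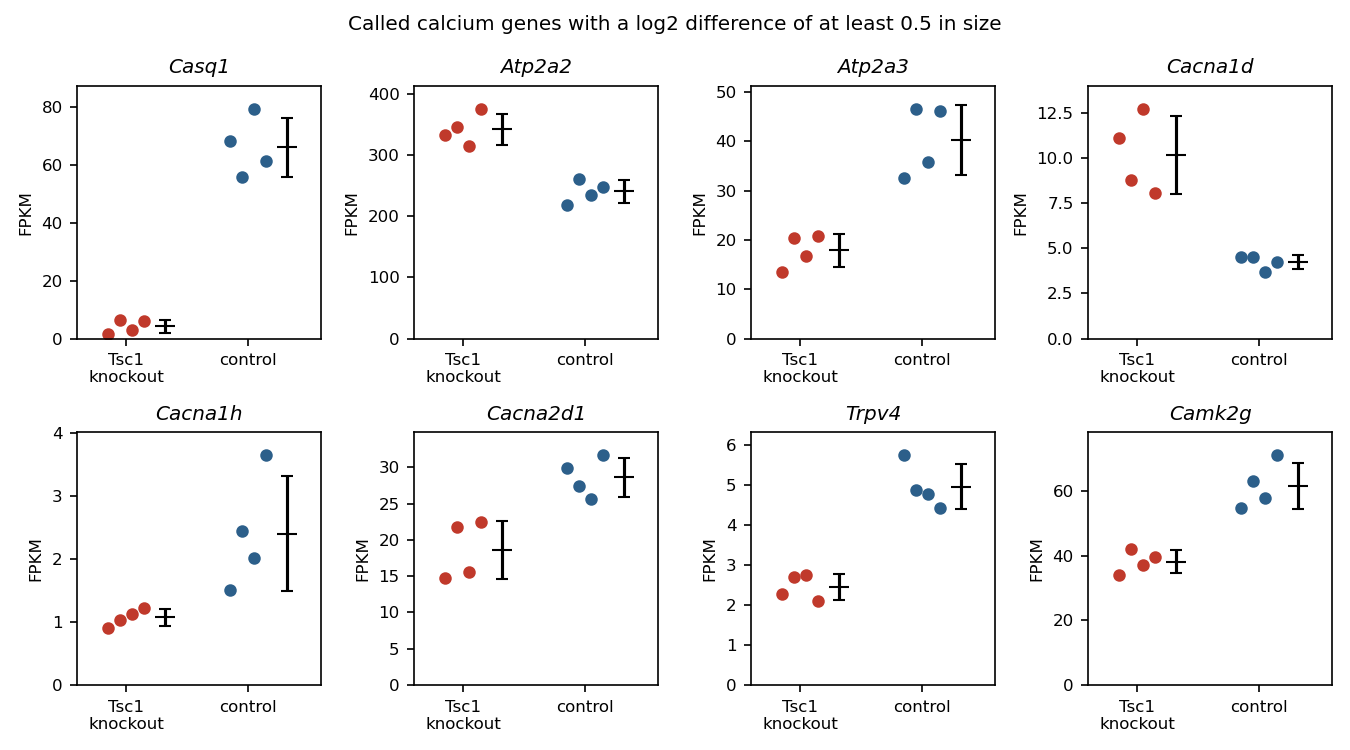
FPKM (y axis, from 0) of the 8 called calcium genes with a log2 difference of at least 0.5 in size, by genotype (x axis). Each point is 1 library, in the order 1 to 4 from left to right within a group, and the black marks are the mean and SD (n = 4). For all 8 genes the knockout and control points do not overlap.

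In store-operated entry, 1 pore gene rose and the sensors did not pass. Orai1, a pore of the store-operated channel, had 12.6, 14.96, 14.5 and 12.1 FPKM in knockouts 1 to 4, against 9.69, 11.1, 10.8 and 10.7 FPKM in controls 1 to 4, without overlap (0.33, SE 0.08, limma adjusted p = 0.0141). Orai3, the most abundant of the family, had 30.7, 34.0, 30.9 and 33.8 FPKM in knockouts and 25.0, 29.4, 26.2 and 31.3 FPKM in controls (0.21, SE 0.08, limma adjusted p = 0.0807). Orai2 was at 2.36 ± 0.398 FPKM in knockouts and 1.56 ± 0.400 FPKM in controls (0.40, SE 0.14, limma adjusted p = 0.0524). Control 4 was the highest control for Orai2 and Orai3, and without it both were called as higher (0.48, limma adjusted p = 0.0255, and 0.26, limma adjusted p = 0.0365). The 3 Orai genes together came to 45.7 to 51.1 FPKM in knockouts and 35.8 to 44.1 FPKM in controls.

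Stim1 and Stim2 sense the filling of the reticulum and open Orai channels. Stim1 had 23.1, 31.0, 23.8 and 30.6 FPKM in knockouts 1 to 4 and 24.4, 29.4, 25.7 and 28.7 FPKM in controls 1 to 4 (limma adjusted p = 0.978), with replicates 2 and 4 higher in both groups. Stim2 was at 6.24 ± 0.347 FPKM in knockouts and 7.06 ± 0.520 FPKM in controls (-0.15, SE 0.07, limma adjusted p = 0.12).

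The TRP channels split. Trpv4, a calcium-permeable channel of smooth muscle and endothelium opened by osmotic and mechanical stimuli (chromosome 5, 114622152 to 114658421, minus strand), fell to 2.27, 2.69, 2.76 and 2.10 FPKM in knockouts 1 to 4, against 5.74, 4.89, 4.79 and 4.44 FPKM in controls 1 to 4. All knockouts were below all controls (2.45 ± 0.324 FPKM in knockouts and 4.96 ± 0.553 FPKM in controls; -0.79, SE 0.10, limma adjusted p = 5.14e-04). The part of the lower endothelial markers in this difference was not tested. Trpv2, a related channel, rose to 18.1, 19.3, 16.0 and 16.9 FPKM in knockouts, against 13.4, 12.1, 14.1 and 12.6 FPKM in controls, also without overlap (0.40, SE 0.07, limma adjusted p = 0.00363). It was the most abundant of the 6 TRP genes.

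Trpm4, a calcium-activated channel for monovalent cations, fell to 8.11 ± 0.840 FPKM in knockouts, against 11.8 ± 2.59 FPKM in controls (-0.48, SE 0.14, limma adjusted p = 0.0292). Its call was lost without knockout 1, 3 or 4 or control 2 or 4 (-0.48 to -0.37). Trpc1 was at 3.75 ± 0.573 FPKM in knockouts and 3.23 ± 0.220 FPKM in controls and did not pass (0.16, limma adjusted p = 0.233). Trpc4 and Trpc6, receptor-operated channels, were listed under 0.12 FPKM in every library (0.0311 to 0.0585 and 0.0292 to 0.0908 FPKM in knockouts, 0 to 0.107 and 0.0615 to 0.112 FPKM in controls).

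Of the kinase genes that read calcium through calmodulin, Camk2g was the more abundant in controls and it fell. Camk2g (chromosome 14, 20734875 to 20794088, minus strand) had 34.1, 42.2, 37.2 and 39.6 FPKM in knockouts 1 to 4, against 55.01, 63.2, 57.9 and 71.1 FPKM in controls 1 to 4. The groups did not overlap (38.3 ± 3.43 FPKM in knockouts and 61.8 ± 7.09 FPKM in controls; -0.67, SE 0.09, limma adjusted p = 9.99e-04). Camk2d had 35.1, 38.5, 35.7 and 41.8 FPKM in knockouts and 32.02, 37.3, 34.5 and 38.3 FPKM in controls (0.09, SE 0.08, limma adjusted p = 0.432). Camk2g made up 48.6% to 52.3% of the sum of both in knockouts and 62.7% to 65.0% in controls.

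**Figure D4:**
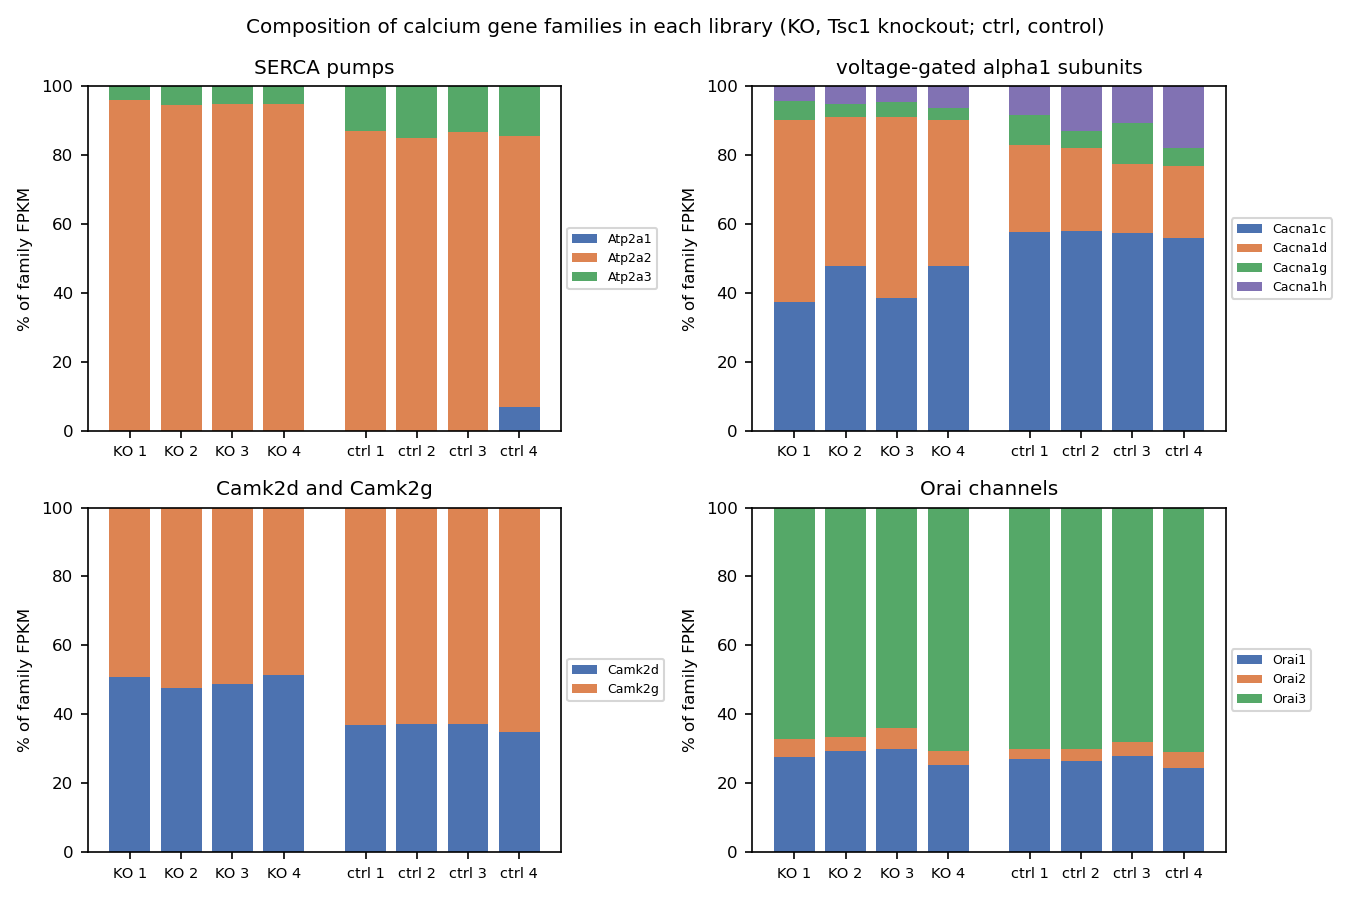
Share of each gene in the summed FPKM of its family (y axis, percent) in each library (x axis, knockouts left of controls). Atp2a3 takes 3.93% to 5.58% of SERCA FPKM in knockouts and 13.0% to 15.1% in controls, Cacna1d takes 42.3% to 52.9% and 19.99% to 25.1% of the 4 pore genes, and Camk2g takes 48.6% to 52.3% and 62.7% to 65.0% of the sum of Camk2d and Camk2g.

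Beside these genes stood 7 lists of other calcium genes, also chosen with earlier results of these data known. Their counts are to be read beside all tested genes, of which 32.2% were called, 17.1% as higher and 15% as lower. Of 15 other tested reticulum proteins 5 were higher and 2 lower (median log2 difference -0.07, beside 0.01 over all tested genes). S100a1, a calcium-binding regulator of release channels and SERCA, rose (0.32, limma adjusted p = 0.0147), as did Mrvi1, the IP3 receptor-associated substrate of cGMP kinase (143 ± 16.9 FPKM in knockouts and 111 ± 6.48 FPKM in controls; 0.35, limma adjusted p = 0.0165). Fkbp1a, which binds release channels (-0.24, limma adjusted p = 0.00401), and the cation channel Tmem38b of the reticulum membrane (-0.49, limma adjusted p = 0.0186) fell. Of 6 other tested pumps and exchangers 2 rose and 2 fell (median -0.15). Slc8b1, the sodium-calcium exchanger of mitochondria, had 31.2, 30.02, 32.7 and 27.5 FPKM in knockouts 1 to 4, against 6.90, 10.6, 7.67 and 13.6 FPKM in controls 1 to 4 (1.59, SE 0.18, limma adjusted p = 3.43e-04). Atp2c1, the Golgi calcium pump, also rose (0.48, limma adjusted p = 0.00103). The exchangers Slc24a4 (0.242 ± 0.242 FPKM in knockouts and 2.32 ± 0.577 FPKM in controls; -1.42, limma adjusted p = 5.65e-04) and Slc8a2 (-0.41, limma adjusted p = 0.0064) fell. Slc24a4 passed the filter of 1 FPKM only through the controls.

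The channels of other organelles were called in both directions. Of 11 genes of mitochondrial calcium uptake 5 were higher and 2 lower (median 0.21), with the outer membrane channels Vdac3 (0.32, limma adjusted p = 0.0111) and Vdac1 (0.27, limma adjusted p = 0.0131) higher and the uniporter regulators Micu3 (-0.36, limma adjusted p = 0.0139) and Smdt1 (-0.24, limma adjusted p = 0.0492) lower. All 3 tested lysosomal channels were called. Mcoln1 (mucolipin 1) rose to 21.1 ± 0.547 FPKM in knockouts, against 12.8 ± 1.07 FPKM in controls (0.68, limma adjusted p = 1.71e-04), and Tpcn1 rose to 32.2 ± 4.55 FPKM in knockouts, against 15.1 ± 1.93 FPKM in controls (1.04, limma adjusted p = 3.39e-04). Tpcn2, the paralog of Tpcn1, fell to 7.43 ± 0.585 FPKM in knockouts, against 9.69 ± 0.505 FPKM in controls (-0.34, limma adjusted p = 0.00538).

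Of 5 other tested voltage-gated subunits and related channels 1 rose, the sodium leak channel Nalcn (0.52, limma adjusted p = 0.00155), and 1 fell, Cacnb1 (-0.28, limma adjusted p = 0.0185), with a median of -0.18. The list of other store-operated, TRP and mechanosensitive channels had 9 tested genes, 3 higher and 3 lower (median 0.02). Trpm3 rose to 3.12, 2.63, 3.42 and 2.32 FPKM in knockouts 1 to 4, against 0.507, 0.511, 0.458 and 0.671 FPKM in controls 1 to 4 (1.33, limma adjusted p = 9.57e-05), and Trpm7 rose as well (0.41, limma adjusted p = 0.00843). Trpm3 averaged under 1 FPKM in controls and passed the filter only through the knockouts. Tmem110, a partner of Stim1 (-0.61, limma adjusted p = 0.0149), and Efcab4a (-0.41, limma adjusted p = 0.00791) fell. Of 19 tested genes of calmodulin, its kinases, calcineurin and NFAT 2 rose and 3 fell (median -0.07). Camk1 (0.40, limma adjusted p = 0.00188) and Nfatc3 (0.18, limma adjusted p = 0.026) rose, and Camk2b (-0.56, limma adjusted p = 0.007) and Calm3 (-0.24, limma adjusted p = 0.0249) fell.

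Across 23 alternative settings, Casq1, Atp2a2, Cacna1d and Trpv4 kept their calls and directions in all. Atp2a3, Cacna2d1 and Camk2g lost theirs only with the smooth muscle identity score as a covariate (-0.71, -0.12 and -0.49), and Trpv2 only within the odd-numbered libraries (0.29). Slc8a1 and Orai1 lost their calls in 3 alternatives each and Cacna1h in 4, always with the sign kept. Those of Slc8a1 and Cacna1h were lost within the odd-numbered libraries, with the skeletal muscle score and without both knockouts 1 and 4. The Cacna1h call was also lost with the smooth muscle identity score. For Orai1 it was lost within the odd-numbered or even-numbered libraries and with the smooth muscle identity score. The calls nearest the threshold were lost most often, in 14 alternatives each for Hrc and Itpr2, 12 for Itpr3 and 9 each for Cacna1c and Trpm4. With the smooth muscle identity score Hrc stood at -0.0091 and Cacna1d, still called, at 0.62 (limma adjusted p = 0.0287). That score, the mean log2(FPKM + 1) of the 15 markers, was 7.93 to 8.43 in knockouts and 8.62 to 8.69 in controls. Because the groups do not overlap in it, genotype and this score cannot be well told apart in such a fit.

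**Figure D5:**
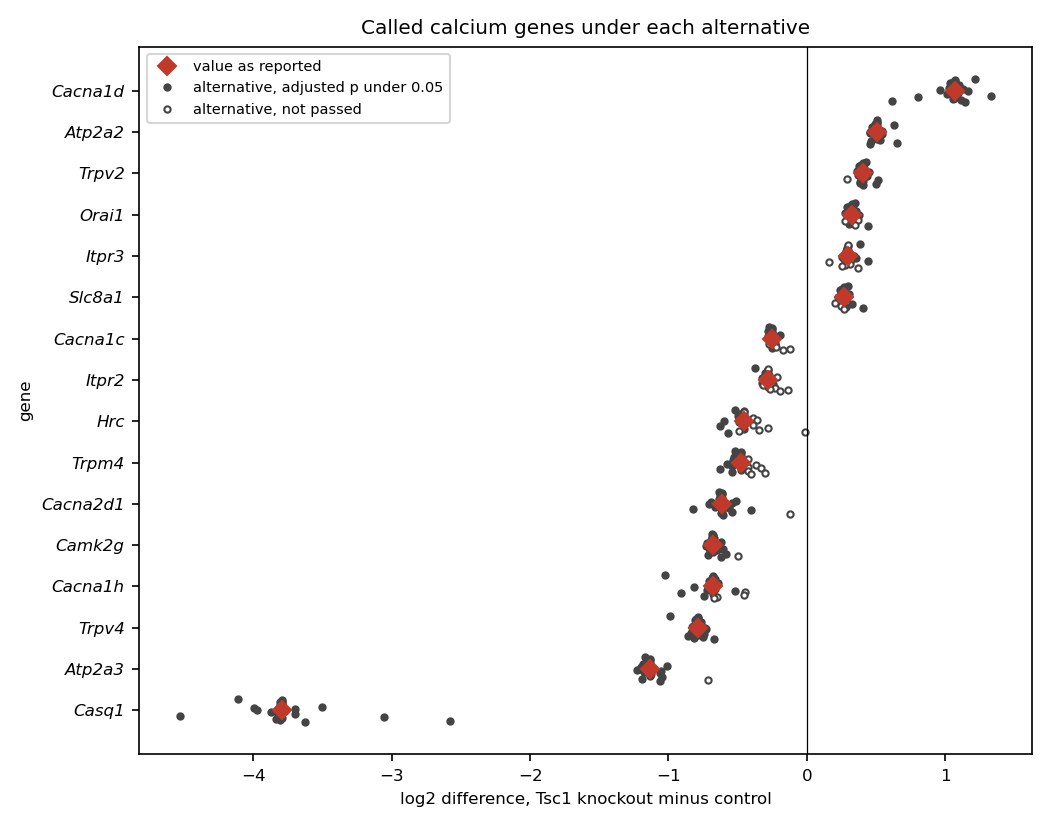
Log2 difference (x axis, Tsc1 knockout minus control) of the 16 called calcium genes (y axis) as reported (diamonds) and under the 23 alternatives (circles, filled where adjusted p was under 0.05). All points keep the sign of the diamond, and Casq1, Atp2a2, Cacna1d and Trpv4 have filled circles only.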

How the data were processed

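Per the labels' protocols, whole vessels were frozen and crushed, and polyA-selected Illumina libraries were made from 500 ng of RNA each, with a RIN over 7. The authors deposited 1 table of FPKM with 1 column per library. Per the submitters' processing notes, TopHat2, Cufflinks, Cuffdiff and mm10 were used, with no versions or roles. Annotation, strand setting and library scaling are not stated in these sources, so near-identical and overlapping genes are less certain.

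From the deposited FPKM, log2(FPKM + 1) was fitted with limma 3.58.1 in R 4.3.3 (eBayes with a mean-variance trend, genotype as the only term, two-sided) over the 12107 genes averaging 1 FPKM or more, with Benjamini-Hochberg adjustment over all of them and a threshold of 0.05. On data simulated for this comparison over the 12107 genes, 49.5%, 92% and 98% of 200 genes changed by a log2 difference of 0.5, 1 and 2 were recovered. Only those 200 genes were changed there, with noise independent between libraries, while 32.2% of genes were called in the real data. The recovered shares therefore hold for that simulated setting only.

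The members and lists were chosen with earlier results of these data known. All 41 genes are named; values per library are given for called genes with a log2 difference of at least 0.5 and for the most abundant gene of each role, and for others beside them chosen after their values were seen, as was Chdh. From each list of other calcium genes, those called with the 2 lowest adjusted p in each direction are named. Coordinates are from GENCODE release M21 (mm10). Alternatives covered the pseudocount, filter, scaling, weights, variance prior, replicate block, covariates and left-out libraries.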

Additional observations from a re-analysis of the deposited data

Results flagged for a closer look

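In groups of 4 libraries, 1 library stood far from the other 3 in 9 of 228 groups screened, where chance flags about 5%. Control 4 was the distant library for Atp2a1 (21.5 FPKM, against 0.0498 to 0.176 FPKM in the other controls), Ryr1 (1.16 FPKM, against 0 to 0.0264 FPKM) and the summed skeletal muscle markers (298 FPKM, against 26.5 to 27.2 FPKM). The shares that contain Atp2a1 and Ryr1 were distant in the same library: Atp2a1 made up 6.81% of SERCA FPKM, Ryr1 11.5% of ryanodine receptor FPKM and Ryr2 88.2%. In control 1 the summed fat cell markers were 1142 FPKM, against 380.2 to 466 FPKM in the other controls, and the ratio of Pln to Atp2a2 was 0.0209, against 0.0114 to 0.0125. Trpc4 had 0.107 FPKM in control 2, against 0 to 0.0155 FPKM in the other controls, a level at which very few fragments set the value.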

How the results depend on the processing

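The counts of calcium genes called, 6 higher and 10 lower, ranged from 5 to 8 and from 6 to 9 over the 8 libraries left out in turn. With the skeletal muscle score as a covariate 5 were lower, with the smooth muscle identity score 2, and without both knockouts 1 and 4, an alternative chosen after seeing the data, 6. Over all tested genes, where 2074 were higher and 1819 lower, the smooth muscle identity score left 939 and 758, and leaving out both knockouts 1 and 4 left 1116 and 945. Counts over all tested genes thus moved with the setting too, and the calcium counts alone show no change particular to these genes. For the libraries left out in turn and the skeletal muscle score the counts over all tested genes are not given here. No called calcium gene changed sign in any alternative. Genes that had not passed changed sign as follows, and the cause was not tested. Within the odd-numbered libraries the log2 differences were 0.020 for Ryr2, -0.12 for Pln, 0.086 for Atp2b1, 0.26 for Cacnb3 and -0.032 for Trpc1, and within the even-numbered ones 0.14 for Itpr1 and 0.083 for Stim1. The skeletal muscle score gave 0.018 for Ryr2, 0.37 for Atp2a1, 0.019 for Cacnb3 and 0.032 for Stim1. The smooth muscle identity score gave 0.062 for Jph2, 0.071 for Ryr2, 0.24 for Itpr1, 0.21 for Atp2b4 and 0.37 for Stim1. Without both knockouts 1 and 4 the values were 0.0075 for Itpr1, -0.30 for Pln, -0.21 for Sln, 0.046 for Cacnb3 and 0.011 for Stim1. Over single libraries left out, Itpr1 ran from -0.054 to 0.045, Atp2b1 from -0.12 to 0.043, Cacnb3 from -0.10 to 0.063 and Stim1 from -0.072 to 0.065. The replicate block gave 8 higher and 12 lower calcium genes, and 2349 higher and 2122 lower over all tested genes. Under that block Srl, Jph2, Atp2b4, Cacnb2 and Orai3 passed (limma adjusted p = 0.0211, 0.0253, 0.0346, 0.0458 and 0.0278) and Itpr2 did not (0.0694), with the same log2 differences as reported. Deviations from the group means correlated across genes by 0.07, 0.14, 0.13 and 0.17 between libraries of the same number, and knockout 1 correlated more with control 3 (0.15), so that the numbers were not taken as pairs. All correlations between libraries that were both odd or both even in number were positive and all others negative; what odd and even numbers stand for is not given in the labels. With a term for odd against even numbers Jph2, Atp2b4, Cacna1g, Cacnb2 and Orai3 passed (limma adjusted p = 0.0169, 0.0129, 0.0321, 0.021 and 0.0102). Library depth is known only in relative terms, and genes under 1 FPKM were not tested.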
